A study of Homo sapiens with 24 samples.

Results

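Sphingosine 1-phosphate (S1P) is made, broken down and sensed by a small set of proteins, and 10 of the 48162 genes in the deposited count table encode them. They were chosen by gene symbol: the kinases SPHK1 and SPHK2, the phosphatases SGPP1 and SGPP2, the lyase SGPL1 and the receptors S1PR1, S1PR2, S1PR3, S1PR4 and S1PR5. RNA-seq was done on PPC1, an established prostate cancer cell line, in 24 libraries, 6 for each of 4 conditions. Parental cells (UT) were neither irradiated nor treated. Parental cells with the drug (UT_LCL) received 5 µM LCL521, a prodrug that inhibits the acid ceramidase ASAH1, for 5 h before harvest. Polyploid giant cancer cells (PGCC) were cells given 8 Gy of radiation on day 2 and caught on a 20 micron filter at harvest on day 5. Irradiated, filtered cells that also received LCL521 made the fourth condition (PGCC_LCL). All 4 conditions were harvested side by side in each of 6 repeats of the experiment, and libraries with the same replicate number were treated as pairs where a paired result is given. The PGCC are a filter-enriched population of 1 cell line and the parental cells were not filtered, so radiation, filtration and cell size cannot be told apart as the source of a difference between them.

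S1P is a lipid with signalling roles both inside and outside cells. Ceramidases, ASAH1 among them, release sphingosine from ceramide, and the sphingosine kinases phosphorylate it to S1P. The phosphatases SGPP1 and SGPP2 of the endoplasmic reticulum turn S1P back into sphingosine, which ceramide synthases can use again, whereas the lyase SGPL1 cleaves S1P irreversibly into ethanolamine phosphate and a fatty aldehyde and is the only exit from the sphingolipid pathway. S1P that leaves the cell acts on the S1PR family of G protein-coupled receptors. In cancer cells ceramide is widely described as a growth-arresting or death-promoting lipid and S1P as a survival signal.

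The stretches that precede the start sites of 4 members are shown because these members carry the main results: SPHK1, SGPP2 and SGPL1, the enzymes with the largest fold changes between PGCC and parental cells, and S1PR2, the most abundant receptor. Each run is the 250 bases before a RefSeq start on GRCh38.p14, written 5′ to 3′ on the strand of the gene. These coordinates belong to that build and not to hg19, the build of the count table. Capitals mark any match, on either strand, to 3 searched motifs: the GC box GGGCGG, the cyclic AMP response element TGACGTCA and the AP-1 motif TGACTCA. None of the marked matches overlap each other.
SPHK1, start 3 (chr17:76385028-76385277, plus strand): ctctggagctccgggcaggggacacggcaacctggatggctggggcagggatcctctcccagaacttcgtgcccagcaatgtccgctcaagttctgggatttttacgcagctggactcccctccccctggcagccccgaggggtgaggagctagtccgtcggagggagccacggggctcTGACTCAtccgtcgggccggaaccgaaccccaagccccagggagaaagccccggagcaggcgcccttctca
SGPP2, start 1 (chr2:222423738-222423987, plus strand): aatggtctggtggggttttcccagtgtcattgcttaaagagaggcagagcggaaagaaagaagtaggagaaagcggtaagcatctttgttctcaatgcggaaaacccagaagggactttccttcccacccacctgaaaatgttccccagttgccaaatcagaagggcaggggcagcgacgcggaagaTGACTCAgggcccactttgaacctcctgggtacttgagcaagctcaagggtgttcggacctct
SGPL1 (chr10:70815698-70815947, plus strand): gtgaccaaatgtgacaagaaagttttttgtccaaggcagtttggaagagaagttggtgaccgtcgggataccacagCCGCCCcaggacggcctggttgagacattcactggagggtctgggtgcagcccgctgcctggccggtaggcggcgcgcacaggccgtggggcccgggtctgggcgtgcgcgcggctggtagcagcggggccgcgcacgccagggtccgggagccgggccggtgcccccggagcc
S1PR2 (chr19:10231332-10231581, minus strand): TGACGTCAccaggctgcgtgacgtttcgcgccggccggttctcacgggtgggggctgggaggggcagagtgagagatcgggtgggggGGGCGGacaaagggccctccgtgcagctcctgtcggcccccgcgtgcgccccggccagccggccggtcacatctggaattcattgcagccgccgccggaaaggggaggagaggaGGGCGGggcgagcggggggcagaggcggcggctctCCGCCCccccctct
The SGPP2 window held 1 AP-1 match, a motif of 4.20% of all 35116 windows of the same length. The SPHK1 window shown also held 1 AP-1 match, and the S1PR2 window held the cyclic AMP response element, found in 1.65% of all windows, beside 3 GC boxes. The SGPL1 window held 1 GC box, a motif of 42.6% of windows. GC content was 66.4% for this SPHK1 window, 52.0% for SGPP2, 68.8% for SGPL1 and 74.0% for S1PR2, with a median of 58.0% over all windows. RefSeq lists 3 starts for SPHK1 and 2 for SGPP2, and the window with an AP-1 match is shown for each. Their other windows held 1 and 2 GC boxes in SPHK1 and 7 in SGPP2 and neither of the other motifs. The 4.20% is a share per window, and a gene with several starts has more windows in which a match can fall. A match describes the letters and was not tested for binding.

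Library totals ran from 14835246 to 19906601 counts. Below, CPM is the usual count scaled to library size, with the TMM factors of edgeR, and 3 counts, used as a detection floor, equal 0.150 to 0.207 CPM. Principal component 2 of the libraries, 16.5% of the variance, set replicates 4 and 5 of every condition apart from the other replicates, and no label gives a reason, so results on which they bear are given with and without them. Among prostate markers HOXB13 was above the floor, whereas KLK3, KLK2 and TMPRSS2 were at or below it in every library. Of the epithelial markers, the keratins KRT8, KRT18 and KRT19 averaged 70.2 to 612 CPM in parental cells, CDH1 averaged 3.07 CPM, and EPCAM, at 0.203 CPM, was near the floor. CDKN1A, a cell-cycle inhibitor induced by DNA damage, ranged from 5.10 to 14.4 CPM in parental cells and from 52.3 to 186 CPM in PGCC. The summed level of 5 leukocyte markers was 0.638 to 3.20 CPM in parental cells and 3.28 to 4.94 CPM in PGCC, most of it PTPRC, with CD3E at 0 counts in both. With LCL521 the sums were 0.589 to 2.498 and 3.13 to 4.86 CPM. The endothelial markers VWF and CDH5 summed to 0 to 1.34 CPM in parental cells and 0.363 to 1.01 CPM in PGCC. PTPRC passed the test (log2 fold change 1.39, SE 0.43, edgeR quasi-likelihood adjusted p = 0.0164). The part of that shift in the low receptor counts described further on was not tested.

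The enzymes SPHK1, SGPP1 and SGPL1 were expressed above every receptor, whereas SGPP2 lay below S1PR2. Per kilobase of the gene length listed in the table, SPHK1 stood first in parental cells at 31.1 ± 16.8 CPM per kilobase (SD, n = 6). SGPP1 at 19.3 ± 1.21 and SGPL1 at 18.8 ± 8.10 followed, and the ranges of these 3 overlapped, so their order is not separated by the spread. SPHK2 at 4.50 ± 0.54 overlapped with S1PR2 at 3.22 ± 1.69 on the same scale. SGPP2, S1PR3, S1PR1, S1PR4 and S1PR5 each had a mean of 0.200 CPM per kilobase or less. In PGCC the first 7 ranks were SPHK1, SGPP1, SGPL1, SPHK2, S1PR2, SGPP2 and S1PR3, with no overlap between neighbours down to S1PR3, whereas S1PR3, S1PR1, S1PR4 and S1PR5 overlapped in turn. SPHK1 reached 56.7 ± 10.7 and SGPL1 8.85 ± 1.17 CPM per kilobase there. S1PR2 is scaled by a listed length of 1173 bases, the shortest of the 10, which raises its place in this order. S1PR3 is scaled by 8505 bases, the longest of the 10, which lowers its place.

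The first question was how the genes differ between PGCC and parental cells. SGPP2 and S1PR3 were higher and SGPL1 was lower in PGCC, so 3 of the 7 members with enough counts to be tested passed an adjusted p of 0.05. The edgeR test made calls for 47.4% of all 13812 genes tested, 23.1% as higher and 24.3% as lower, so the members' count is near the background. With the replicate number as a block, SPHK1 and SPHK2 also passed as higher, which made 5 of 7 members against 56.2% of all genes. S1PR1, S1PR4 and S1PR5 had too few counts to be tested. S1PR3 met the count filter largely through its PGCC libraries, with 7 to 27 counts against 0 to 14 in parental cells. It failed that filter among the parental libraries alone, without and with LCL521, so its call carries this limit. The median log2 fold change was 0.25 over the 7 members and -0.03 over all genes tested. Levels are shares of the total RNA of a culture, and fewer cells of a type and less RNA per cell cannot be told apart. The same contrast in LCL521-treated cells used a separate set of 12 libraries, and there 5 of 7 members passed, 3 higher and 2 lower, against 48.9% of 13818 genes, 25.0% higher and 23.9% lower. The replicate block kept the count there at 5, with S1PR3 in place of S1PR2, against 56.3% of genes.

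SPHK1, the mainly cytosolic sphingosine kinase, lies on chromosome 17 (hg19 chr17:74372665-74383941). In parental cells its level ran from 24.1 CPM through a median of 96.4 to 116 CPM. In PGCC it ran from 101 through 156 to 163 CPM. The lowest parental values were the replicates 4 and 5, at 25.9 and 24.1 CPM, whereas the other parental libraries lay between 88.5 and 116 CPM, so the groups overlapped. PGCC were higher in 6 of 6 same-numbered pairs (paired exact permutation p = 0.0312, two-sided, the smallest that 6 pairs allow), a pattern of 50.5% of all genes. SPHK1 had a log2 fold change of 0.88 (SE 0.35), and the edgeR adjusted p of 0.0523 missed the threshold without the block. With the replicate block it was 1.10 (SE 0.24, edgeR adjusted p = 0.00376). Without replicates 4 and 5 it was 0.62 (SE 0.09, edgeR adjusted p = 5.91e-05). The paired difference on the log2 scale averaged 2.10 in replicates 4 and 5 and ran from 0.45 to 0.78 in the other 4, so the direction was common to both sets and the size was not.

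With LCL521 present, SPHK1 had a median of 96.0 CPM in parental cells (29.6 to 118) and 166 CPM in PGCC (109 to 188). It was higher in PGCC in 6 of 6 pairs (50.7% of all genes had one direction in all pairs), with a log2 fold change of 0.97 (SE 0.31, edgeR adjusted p = 0.0167). The body of SPHK1 shares 7938 bases with PRPSAP1 on the opposite strand. PRPSAP1 averaged 60.1 CPM in parental cells and 53.8 CPM in PGCC, and the strand setting of the counting is not given in the sources used here, so reads of this pair may be uncertain.

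SPHK2, the second kinase, which is found largely in the nucleus and mitochondria, differed little. Its parental level ran from 12.2 through 13.6 to 17.03 CPM, and its PGCC level from 15.2 through 16.3 to 18.1 CPM. The groups overlapped, with PGCC higher in 5 of 6 pairs. The log2 fold change was 0.25 (SE 0.10) with an edgeR adjusted p of 0.0539, and 0.26 with the replicate block (adjusted p = 0.0406). It was higher in PGCC with LCL521 at a log2 fold change of 0.31 (SE 0.10, edgeR adjusted p = 0.0224), a call lost without replicate 2, 3 or 5 (0.0784, 0.0651 and 0.0935). SPHK1 made up 83.1% ± 10.98 of the summed kinase mRNA per kilobase in parental cells and 91.2% ± 1.76 in PGCC (SD, n = 6). In replicates 4 and 5 the parental share was 69.4% and 68.7%. SPHK2 shares 246 bases with the opposite-strand ribosomal gene RPL18, which averaged 812 CPM in parental cells and 551 CPM in PGCC.

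The lyase SGPL1 was lower in PGCC. It lies on chromosome 10 (hg19 chr10:72575717-72640930). Parental libraries ran from 68.9 through 85.0 to 170 CPM, and PGCC libraries from 42.8 through 50.6 to 62.7 CPM. The groups did not overlap, as for 26.8% of all genes tested, and the unpaired exact permutation p was 0.00216, the smallest for 6 against 6. The log2 fold change was -1.09 (SE 0.23, edgeR adjusted p = 0.0013) and -0.99 with the replicate block. The high parental libraries were replicates 4 and 5, at 170 and 165 CPM, against 68.9 to 91.7 CPM in the other parental libraries. Without replicates 4 and 5 the log2 fold change was -0.69 (SE 0.10, edgeR adjusted p = 6.66e-05), so the direction and the call were kept at a smaller size.

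Under LCL521 SGPL1 ran from 71.6 through 82.3 to 161 CPM in parental cells and from 47.9 through 50.1 to 53.1 CPM in PGCC, again without overlap (28.1% of all genes). The log2 fold change was -1.03 (SE 0.20, edgeR adjusted p = 0.000809), and -0.62 without replicates 4 and 5 (adjusted p = 2.92e-05). The coefficient of variation of SGPL1 over 6 libraries was 43.0% in parental cells and 13.2% in PGCC, and with LCL521 it was 40.1% and 3.604%. The parental coefficients include replicates 4 and 5, which averaged 167 CPM against 68.9 to 91.7 CPM in the other parental libraries. With LCL521 these replicates averaged 158 CPM against 71.6 to 87.6 CPM. The coefficient without them was not computed.

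**Figure D1:**
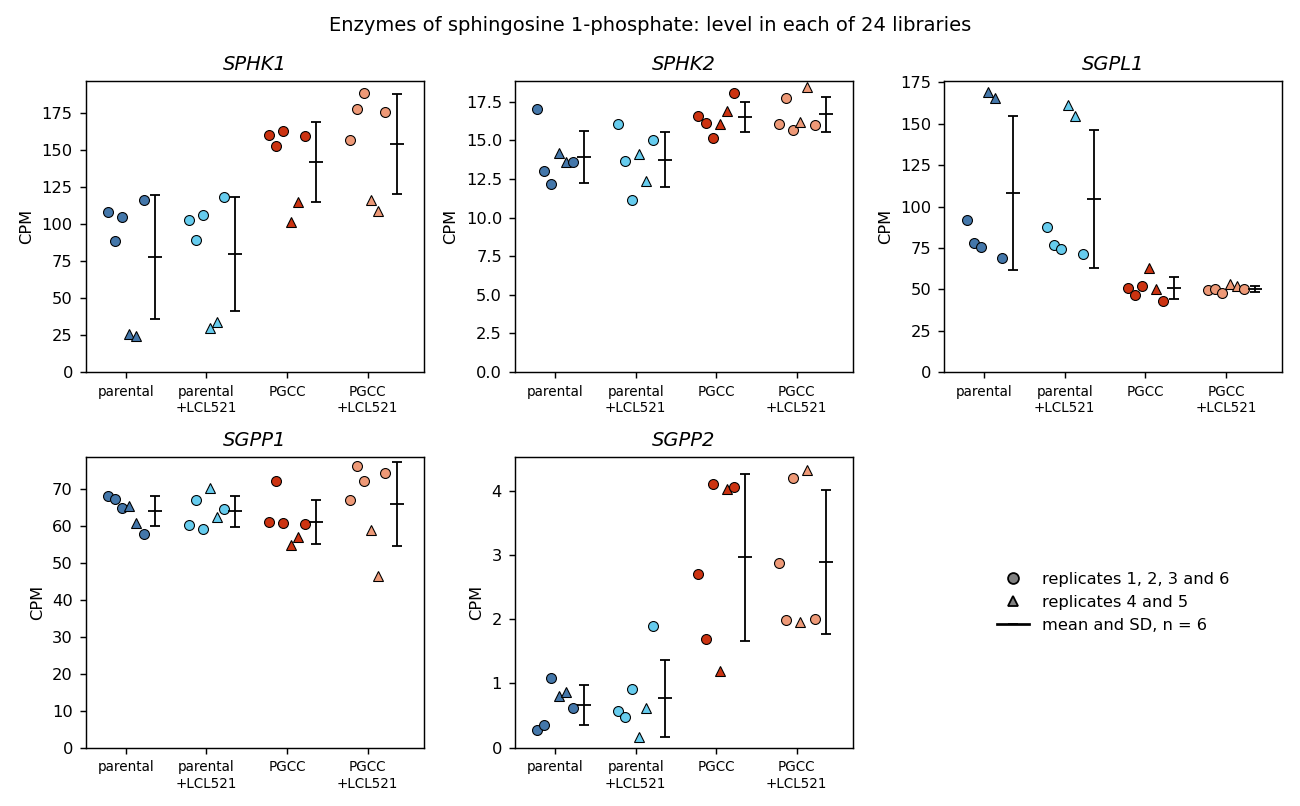
Level in CPM of 5 enzymes of S1P metabolism in each of the 24 libraries, by condition (vertical axes start at 0); triangles are replicates 4 and 5, circles the other replicates, and bars the mean and SD of 6 libraries. SPHK1 and SGPL1 show the 2 parental triangles apart from the circles in opposite directions, and SGPP1 shows the 4 conditions overlapping.

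SGPP1 and SGPP2 remove the phosphate from S1P, and SGPP2 passed the test whereas SGPP1 did not. SGPP1 ran from 57.7 through 65.0 to 68.1 CPM in parental cells and from 54.9 through 60.5 to 72.1 CPM in PGCC. The groups overlapped, and the log2 fold change was -0.06 (95% interval -0.23 to 0.11, edgeR adjusted p = 0.565). With LCL521 the interval was -0.17 to 0.31 (adjusted p = 0.642), although without replicates 4 and 5 SGPP1 passed at a log2 fold change of 0.24 (adjusted p = 0.0262).

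SGPP2, the second phosphatase, was near the limit of these libraries in parental cells and higher in PGCC. It ran from 0.272 through 0.717 to 1.08 CPM in parental cells (5 to 18 counts per library) and from 1.20 through 3.37 to 4.11 CPM in PGCC (24 to 80 counts). The groups did not overlap (26.8% of all genes), with PGCC higher in 6 of 6 pairs (50.5% of all genes had one direction in all pairs). The log2 fold change of 2.15 (SE 0.39, edgeR adjusted p = 0.000448) was the largest of the 7 members tested. With LCL521 the ranges were 0.174 to 1.90 CPM in parental cells and 1.95 to 4.32 CPM in PGCC, which did not overlap either (28.1% of all genes). The separation there was narrow: the highest parental and the lowest PGCC library had 33 counts each, and the smallest paired log2 difference was 0.08. The log2 fold change was 1.91 (SE 0.42, edgeR adjusted p = 0.00174). SGPP1 was the more abundant phosphatase in both. The SGPP1 level per kilobase was 125 ± 79.0 times that of SGPP2 in parental cells and 26.0 ± 14.7 times in PGCC (SD, n = 6).

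**Figure D2:**
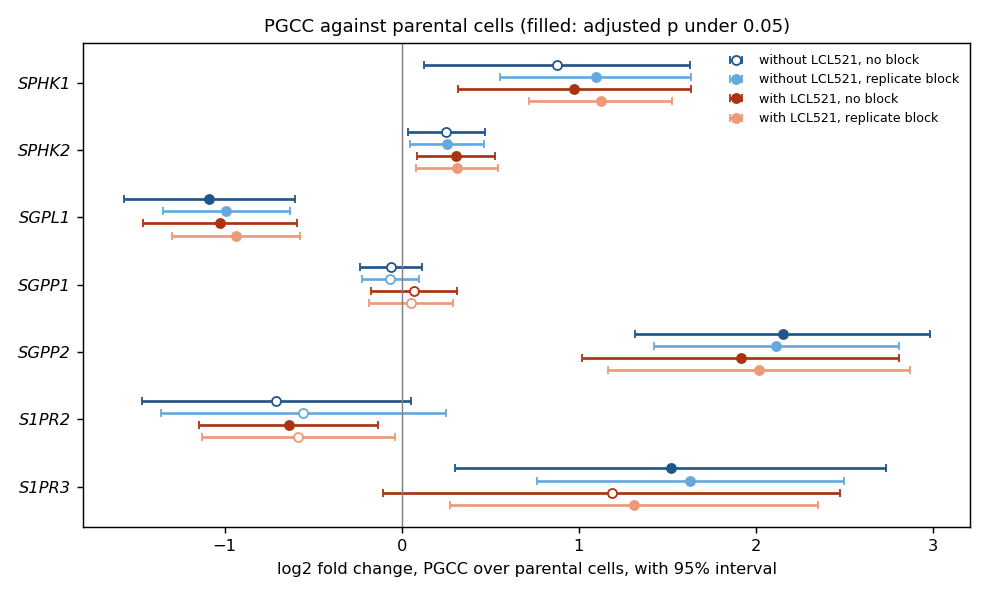
Log2 fold change of 7 members in PGCC over parental cells with 95% intervals, without and with LCL521 and without and with the replicate number as a block; filled points passed an adjusted p of 0.05. SGPL1 lies below 0 and SGPP2 above 0 in all 4 fits, whereas SPHK1, SPHK2, S1PR2 and S1PR3 are filled in some fits only.

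SPHK1, which makes S1P, and SGPL1, which cleaves it, were also compared within a library as the ratio of their levels per kilobase. This ratio was 2.17 ± 1.49 in parental cells and 6.57 ± 1.76 in PGCC (SD, n = 6). In the parental replicates 4 and 5 it was 0.351 and 0.335, whereas the other parental libraries gave 2.60 to 3.88. In PGCC replicate 4 and replicate 5 gave 3.71 and 5.26 and the others 7.21 to 8.53, so PGCC were higher within each set. With LCL521 the ratio was 2.22 ± 1.42 in parental cells and 7.04 ± 1.74 in PGCC. SPHK1 was higher and SGPL1 lower in PGCC in 6 of 6 pairs of both contrasts. A higher ratio in each pair follows from those results and adds no evidence. The ratio compares messenger levels and was not tested as a measure of S1P.

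**Figure D3:**
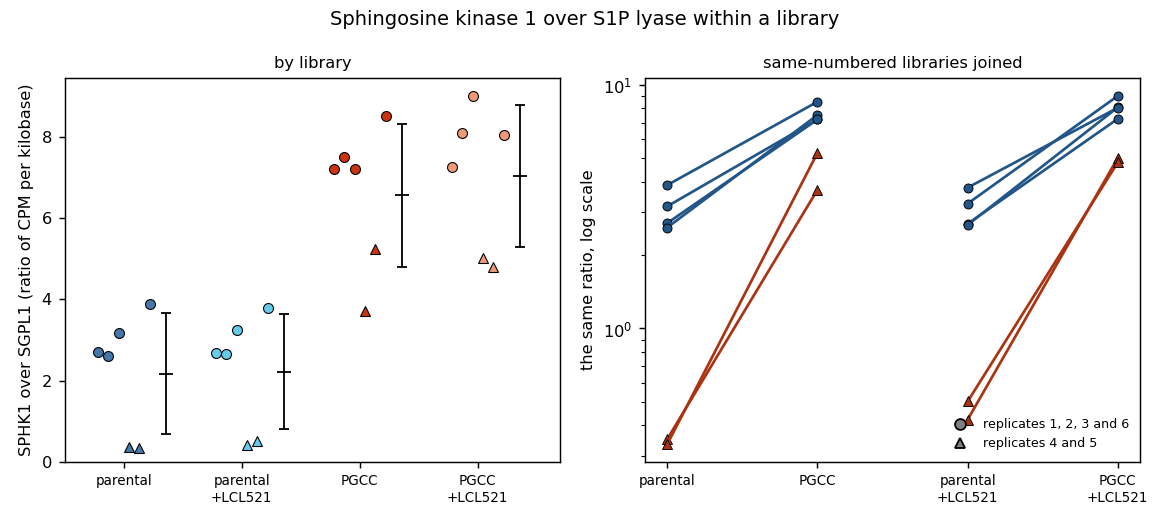
Ratio of SPHK1 to SGPL1, in CPM per kilobase, in each library by condition with the mean and SD of 6 (left, linear axis from 0), and with same-numbered parental and PGCC libraries joined (right, log axis). Every joined line rises from the parental to the PGCC library, as the pairs of SPHK1 and SGPL1 taken singly require. Replicates 4 and 5 start lowest, at 0.351 and 0.335 without LCL521.

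Among the receptors, S1PR2 and S1PR3 had enough counts to be tested and S1PR2 was the most abundant. S1PR2 couples to several G proteins. In parental cells it ran from 1.10 through 4.62 to 5.71 CPM, and in PGCC from 1.89 through 2.06 to 3.05 CPM. Parental replicates 4 and 5, at 1.10 and 1.46 CPM, lay below every PGCC library, and the other 4 parental libraries lay above every one. The log2 fold change was -0.71 (SE 0.35), and the edgeR adjusted p of 0.116 did not pass. Without replicates 4 and 5 it was -1.15 (SE 0.20, adjusted p = 0.00037), and without replicate 4 alone -0.95 (adjusted p = 0.0228). With LCL521 S1PR2 was lower in PGCC (log2 fold change -0.64, SE 0.24, edgeR adjusted p = 0.037), but with the replicate block the adjusted p was 0.065, and it was 0.137, 0.114, 0.0992 and 0.0921 without replicate 1, 2, 3 or 6. In both contrasts the paired difference was negative in replicates 1, 2, 3 and 6. All 7429 bases of S1PR2 lie inside DNMT1 on the same strand. DNMT1, a DNA methyltransferase gene, averaged 163 CPM in parental cells and 299 CPM in PGCC, and how reads shared by both were counted is not given in the sources used here.

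S1PR3, a receptor that couples to Gi, Gq and G12/13 proteins, was scarce. It shares 4694 bases with C9orf47 on the same strand, and how reads shared by both were counted is not given in the sources used here. C9orf47 averaged 0 CPM in parental cells and 0.010 CPM in PGCC. S1PR3 ran from 0 through 0.416 to 0.762 CPM in parental cells and from 0.353 through 1.21 to 1.68 CPM in PGCC. Its highest parental count was 14, and the parental replicates 4 and 5 had at most 1 count each. PGCC were higher in 6 of 6 pairs (50.5% of all genes had one direction in all pairs), although the groups overlapped. The log2 fold change was 1.52 (SE 0.57, edgeR adjusted p = 0.0398), and 1.63 with the replicate block (adjusted p = 0.00569). The call was lost without replicate 2, 3, 4 or 6 (adjusted p = 0.13, 0.0941, 0.054 and 0.0642). With LCL521 the log2 fold change was 1.19 (SE 0.60, adjusted p = 0.118), or 1.31 with the replicate block (adjusted p = 0.0354).

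S1PR1, S1PR4 and S1PR5 were at the edge of detection. S1PR1, a Gi-coupled receptor known for the egress of lymphocytes from lymphoid organs, had at most 2 counts in any parental library and 1 to 11 in PGCC. Summed over 6 libraries these were 7 counts in parental cells and 37 in PGCC, a depth-adjusted ratio of 4.96 with a 95% interval of 2.18 to 13.2 that covers counting error only. With LCL521 the sums were 6 and 49, a ratio of 7.79 (3.33 to 22.3). The groups did not overlap there, as for 28.1% of the genes tested, a set without S1PR1. In a fit of genes with as little as 1 count, S1PR1 was higher in PGCC (edgeR adjusted p = 0.0119 without LCL521, where 25.8% of genes were called, and 0.000998 with it, where 27.1% were). S1PR4, a receptor of blood cells, had 2 counts over 6 parental libraries and 7 over 6 PGCC libraries. S1PR5 had 1 and 1. At this depth no difference could be seen for either.

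**Figure D4:**
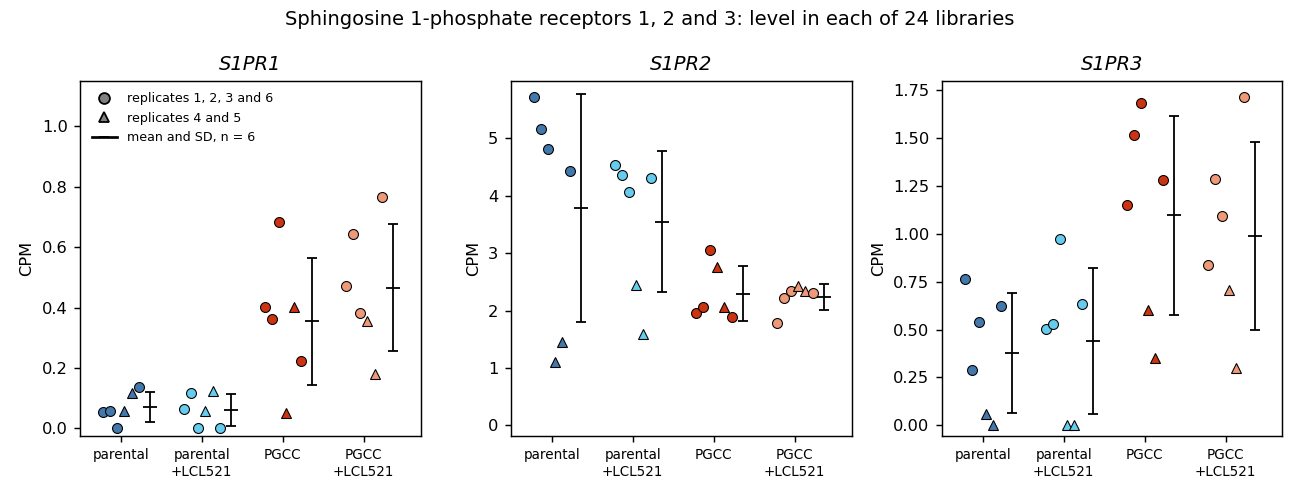
Level in CPM of S1PR1, S1PR2 and S1PR3 in each of the 24 libraries, by condition; triangles are replicates 4 and 5, circles the other replicates, and bars the mean and SD of 6 libraries. Without LCL521 the S1PR2 parental triangles lie below the PGCC libraries and the parental circles lie above them.

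The second question was whether 5 h of LCL521, which blocks the release of sphingosine from ceramide by ASAH1, changed these messengers. In parental cells, 0 of the 6 members tested passed, and 0 had an unadjusted p under 0.05. The edgeR test called 0% of 13277 genes, with 71 at an unadjusted p under 0.05, and DESeq2 also called 0. In PGCC, 0 of 7 members passed and 0 had an unadjusted p under 0.05, against 0.00707% of 14151 genes called (218 genes at an unadjusted p under 0.05). DESeq2 called 6 genes there and 0 members. For SPHK1 the 95% interval of the log2 fold change was -0.93 to 1.02 in parental cells and -0.21 to 0.45 in PGCC. For SGPL1 it was -0.68 to 0.58 in parental cells and -0.17 to 0.16 in PGCC, so the PGCC interval does not reach the log2 fold change of -1.09 found between PGCC and parental cells. With the replicate block, which brought the share of genes called to 0.866% and 1.65%, the members still gave 0 calls. SPHK1 in PGCC was then at a log2 fold change of 0.11 (SE 0.04), with an adjusted p of 0.184 and an interval of 0.03 to 0.20.

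The difference between the LCL521 effects in PGCC and in parental cells was tested as an interaction, with 0 of 7 members and 0% of 14555 genes called. By an unadjusted p under 0.05 there were 60 genes, none of them a member, and DESeq2 called 0. The intervals of this difference on the log2 scale ran from -0.95 to 1.11 for SPHK1, from -0.61 to 0.69 for SGPL1 and from -1.47 to 0.97 for SGPP2. They are wide and come from the fit without the replicate block, and that fit does not exclude effects within them. With the replicate block 0 of 7 members and 0 genes were called for the interaction.

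**Figure D5:**
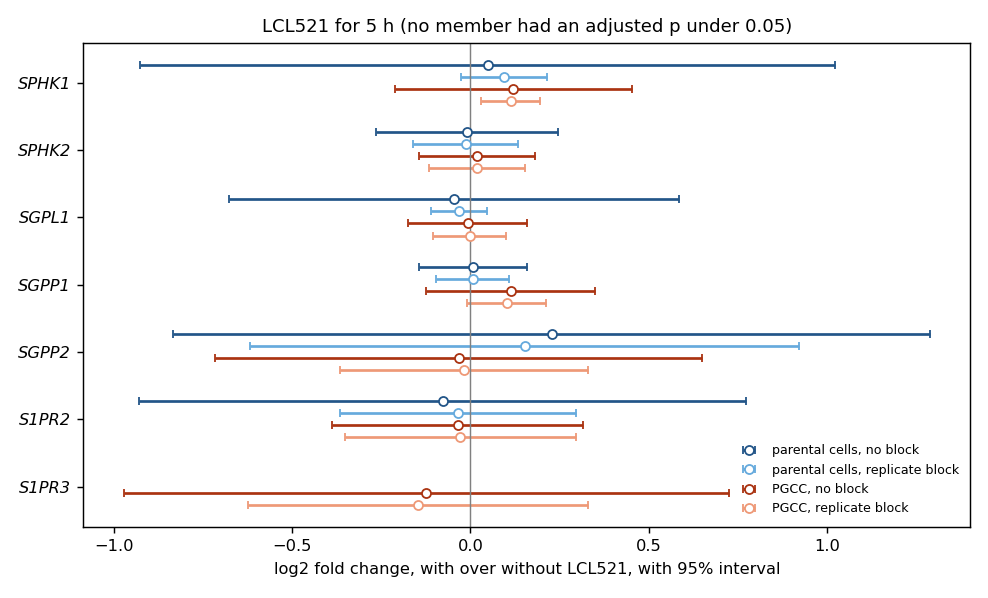
Log2 fold change of the members tested with over without LCL521, with 95% intervals, in parental cells and in PGCC, without and with the replicate number as a block; open points did not pass an adjusted p of 0.05. All points are open, and S1PR3 could be tested in PGCC only.

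Of 31 tested genes in the lists around the pathway, 13 passed between PGCC and parental cells, or 41.9%, which is below the 47.4% of all genes. With the replicate block 17 passed (54.8%, against 56.2% of all genes). In the contrast with LCL521 14 passed without the block (45.2%, against 48.9%) and 19 with it (61.3%, against 56.3%). These shares are near those of all genes. Each gene named as higher or lower passed an edgeR adjusted p of 0.05 without LCL521 and without the block. Of 6 genes of sphingosine supply, 4 were tested, 1 was higher and 1 lower. ACER2, a Golgi alkaline ceramidase, averaged 0.364 CPM in parental cells and 0.885 CPM in PGCC (log2 fold change 1.29, SE 0.32, edgeR adjusted p = 0.0048). ACER2 met the count filter through its PGCC libraries, with at most 9 counts in a parental library without LCL521. It failed that filter among the parental libraries alone, without and with LCL521, so its call carries this limit. ASAH1, the LCL521 target, averaged 65.1 and 49.1 CPM (log2 fold change -0.40, SE 0.07, edgeR adjusted p = 0.000596). Of 6 ceramide synthases, which reuse sphingosine, 3 were tested, with CERS6 higher (0.42) and CERS2 lower (-0.63). CERS2, the synthase of very long chain ceramides, averaged 332 and 213 CPM.

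Of 8 genes of S1P export and carriers 4 were tested. ABCA1, a sterol and phospholipid exporter that can also carry S1P, rose from 1.33 to 5.08 CPM (log2 fold change 1.93, SE 0.20). ABCC1 was lower, at a log2 fold change of -0.40. SPNS2, the dedicated S1P exporter, averaged 4.76 CPM in parental cells and 6.17 CPM in PGCC and did not pass (log2 fold change 0.40, adjusted p = 0.442). None of the 2 tested of 3 surface lipid phosphate phosphatases passed. ALDH3A2, which oxidises the fatty aldehyde that SGPL1 releases, was lower, with a log2 fold change of -0.66 (SE 0.09) and means of 243 and 153 CPM. It was 1 of 2 tested of the 3 genes that use the lyase products.

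Downstream of the receptors, 2 of 7 G protein alpha subunits were higher and 0 were lower, GNAI2 and GNAQ, led by GNAQ (log2 fold change 0.97, SE 0.22, edgeR adjusted p = 0.0022). Of 6 genes of receptor desensitisation, ADRBK1 and ADRBK2 were lower. ADRBK2, a receptor kinase, fell from 2.10 to 0.231 CPM, a log2 fold change of -3.13 (SE 0.41). ADRBK2 met the count filter through its parental libraries, with at most 6 counts in any PGCC library, near the floor. It failed that filter among the PGCC libraries alone, without and with LCL521, so its call and fold change carry this limit. Of the 3 LPA receptors, the closest relatives of the S1P receptors, LPAR1 and LPAR3 were lower, and LPAR3 averaged 28.4 CPM in parental cells and 13.7 CPM in PGCC (log2 fold change -1.04, SE 0.12). The median log2 fold change of the tested genes was -0.04 for sphingosine supply, 0.15 for the ceramide synthases, 0.19 for export and carriers, 0.07 for the surface phosphatases, -0.21 for use of the lyase products, 0.05 for the G protein subunits, -0.08 for desensitisation and -0.38 for the LPA receptors, against -0.03 over all genes. With the replicate block ACER3, ARRB2, GRK5 and LPAR2 also passed as higher (edgeR adjusted p = 0.0106, 0.0391, 0.0326 and 0.00587). In the contrast with LCL521, without the block, ACER2 and ADRBK1 did not pass (adjusted p = 0.0554 and 0.0618), and ACER3, PCYT2 and LPAR2 passed as higher (0.0264, 0.0468 and 0.0068). With the block, ACER2, ADRBK1, ARRB2, GRK5, SPNS2 and the surface phosphatase PPAP2B passed there (0.0421, 0.0303, 0.0318, 0.0182, 0.0217 and 0.0168) and PCYT2 did not (0.0658). These lists were chosen with earlier results known. For LCL521 itself, in parental cells, in PGCC or as the interaction, 0 genes of any of these lists passed, without or with the replicate block.

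Over the 24 libraries, and leaving out genes whose average was under 1 on the log2 CPM scale, those whose level was most like that of SGPL1 were C9orf91 (Pearson r = 0.985), RBCK1 (0.980) and GRB10 (0.978), each over 24 libraries. Those most like SGPP2 were PCNT (0.912), CACNA1A (0.904) and MYO7B (0.895). The libraries share conditions and harvests, so these values describe likeness of pattern only.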

How the data were processed

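RNA of PPC1 cells was sequenced in 24 libraries, and the authors deposited raw read counts per gene, with gene length, made from reads aligned with STAR and counted with HTSeq on hg19. The annotation release and the strand setting are not given in the sources used here. Groups followed the labels. Counts were analysed as deposited with edgeR 4.0.16 in R 4.3.3 (TMM, filterByExpr at 10 counts and a total of 15, quasi-likelihood test, Benjamini-Hochberg adjustment over all genes tested, threshold 0.05), 12 libraries per contrast and 24 for the interaction. The fits were run first on simulated counts with known changes. Alternatives used DESeq2 1.42.0, limma 3.58.1, other scalings, filters and library sets, and the replicate block. Exact permutation tests used log2 CPM with a prior count of 2 and were two-sided. Replicate numbers pair the libraries: the design states parallel harvests, and same-numbered libraries correlated in their deviations from group means (lowest r = 0.171 over the contrasts). For libraries of unlike number the median r ran from -0.39 to -0.08 over the contrasts. Replicates 4 and 5 lay apart in every condition, which alone could give this pattern. The correlations therefore do not show pairing number by number, and the pairing rests on the stated harvests. Replicate pairs of a group differed beyond counting noise (chi-square per degree of freedom 4.69 to 110 over 60 pairs). The 6 repeats are separate experiments on 1 cell line. Members, lists and the choice to look at replicates 4 and 5 were made with earlier results of these data known. Genes named beside the members were the largest rise and fall past the threshold in each list and the 3 closest patterns to the largest rising and falling member. Exceptions were C9orf47, DNMT1, PRPSAP1 and RPL18, named because they overlap a member, and the marker genes. Further exceptions, chosen after their values were seen, were ACER3, ADRBK1, ARRB2, GNAI2, GRK5, LPAR1, LPAR2, PCYT2, PPAP2B and SPNS2. Promoter windows are RefSeq, GRCh38.p14; 9 of 10 members matched. Library totals give a floor of 3 counts, and intervals on counts (95%) cover counting error only. Some marker genes are not reported here.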

Additional observations from a re-analysis of the deposited data

Results flagged for a closer look

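A test of single libraries within a group of 6 set 7 member values apart from the rest of their group. It was applied to 10 members in each of 4 conditions where values varied. Its cutoff sets apart about 1 in 20 groups of normally distributed values. Counts near 0 are not such values, so that rate does not apply to them. Whether the 7 exceed chance was not tested. SGPP1 was highest in PGCC replicate 2, at 72.1 CPM. S1PR2 was lowest in PGCC_LCL replicate 1, at 1.78 CPM. The other 5 rest on 1 to 3 counts: S1PR4 at 0.0589 CPM in UT_LCL replicate 2 and 0.180 CPM in PGCC_LCL replicate 5, and S1PR5 at 0.0601 CPM in UT replicate 3, 0.0607 CPM in UT_LCL replicate 3 and 0.0556 CPM in PGCC replicate 6. Where 1 library has 1 count and the rest have 0, as for S1PR4 in UT_LCL and for S1PR5, the test sets it apart by construction.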

How the results depend on the processing

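SGPP2 and SGPL1 kept their direction and call in both PGCC contrasts under every alternative in which they were tested; SGPP2 was not tested when 10 counts were asked of every library. Between PGCC and parental cells the members called numbered 3 as reported, 5 with library totals alone, DESeq2, limma-voom, no filter, the replicate block, length correction with the replicate block, all 24 libraries in one fit, no filter with the replicate block (chosen after seeing the data), or without replicates 4 and 5, and 6 without those and with the replicate block. Leaving out 1 replicate gave 2 to 4 members, and 3 to 5 in the contrast with LCL521. Library totals alone moved the calls to 3820 higher and 2521 lower genes, from 3186 and 3355, and shifted the median log2 fold change, taken over all genes, from -0.03 to 0.07; SGPP1 became 0.033. The genes called for LCL521 in parental cells rose from 0 to 115 with the replicate block, 234 with length correction and block, 337 with no filter and block, and 3 with the block without replicates 4 and 5. In PGCC they were 1 as reported, 6 with DESeq2, 0 with limma-voom, all 24 libraries or without replicates 4 and 5, 234 with the replicate block, 260 with length correction and block, 376 with no filter and block, 129 with block without replicates 4 and 5, and 0 to 1 without 1 replicate. The replicate block changed the calls of SPHK1, SPHK2, S1PR2 and S1PR3 given in the report and no other member's call. For LCL521 and the interaction several values near 0, none called, changed sign. In parental cells SPHK2 was 0.016 with library totals, 0.015 without replicates 4 and 5 and 0.014 with the block added, SGPP1 -0.028 and -0.029 in the same pair of fits and -0.0011 in all 24 libraries, and S1PR2 0.076 with limma-voom. In PGCC SPHK2 was -0.015 and -0.014 in the fits without replicates 4 and 5 (no block, block), SGPP2 0.042 with limma-voom, and SGPL1 2.97e-05 with library totals and 0.039 and 0.041 in the fits without replicates 4 and 5. In the interaction limma-voom gave -0.0016 for SPHK1 and -0.095 for S1PR2, and SPHK2 was -0.018 without replicates 4 and 5 and -0.012 with the block added. Leaving out 1 replicate gave, in parental cells, -0.052 to 0.012 for SPHK2, -0.029 to 0.039 for SGPP1 and -0.30 to 0.50 for SGPP2; in PGCC, -0.0043 to 0.070 for SPHK2, -0.11 to 0.17 for SGPP2, -0.040 to 0.046 for SGPL1, -0.084 to 0.050 for S1PR2 and -0.28 to 0.0086 for S1PR3; and in the interaction, -0.0090 to 0.11 for SPHK2, -0.60 to 0.46 for SGPP2, -0.039 to 0.19 for S1PR2 and -0.59 to 0.042 for S1PR3. The cause of these shifts was not tested. Depth limits S1PR1, S1PR3, S1PR4 and S1PR5, which had at most 29 counts in a library.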
